A study of Mus musculus with 6 samples.

Results

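Chromatin accessibility around 10 regulators of blood stem cells and early progenitors was examined in Beko cells. The genes were Kit, Flt3, Lmo2, Lyl1, Tal1, Hhex, Meis1, Bcl11a, Mef2c and Mycn. A peak was assigned to a gene when it overlapped the gene body or the 50 kb to either side, called the window of the gene, and peaks within 1 kb of an annotated start of the gene were counted separately. By this rule 32 of 32527 peaks fell in the 10 windows, which summed to 1.61 Mb.

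All samples come from Beko, a line of mouse T-cell progenitors with constitutive Notch activity, so that no group lacks this background. Of the 6 ATAC-Seq libraries, 3 came from cells kept for 24 h in the γ-secretase inhibitor DAPT (GSI group) and 3 from cells kept for 24 h in its solvent DMSO. The inhibitor stops Notch from being cut, and the freed Notch fragment is what joins the DNA-binding factor RBPJ to activate genes. The labels give the DAPT concentration as 10 mg/ml, whereas the study's methods give it in μg/ml. ATAC-Seq uses a transposase to insert adapters into open chromatin, so that a peak marks an interval of accessible DNA. The data are 1 list of intervals kept when found in at least 3 of the 6 libraries, in either treatment, with no height and no value per library. Whether a peak changed with GSI, and the spread between replicates, can therefore not be given, and the values below are positions and counts for which no test was made.

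In the thymus, incoming progenitors carry a set of regulators inherited from the stem cell, and these are switched off as the cells commit to the T lineage under Notch signaling. KIT and FLT3 are receptor tyrosine kinases that bind stem cell factor and FLT3 ligand. LMO2 is a LIM-domain adaptor that joins the basic helix-loop-helix factors TAL1 or LYL1 to GATA factors. The complex as a whole binds E-box and GATA sequences together. HHEX and MEIS1 are homeobox factors, BCL11A is a zinc-finger factor, MEF2C is a MADS-box factor and MYCN belongs to the MYC family. Several of these genes, among them Lmo2, Lyl1, Tal1, Mef2c and Mycn, act as oncogenes in T-cell leukemia when they stay on.

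The labelled cell type was compared with marker genes. A peak lay within 1 kb of an own start in 14 of 16 T-lineage markers, among them Cd3e, Lck, Rag1, Tcf7, Bcl11b and Notch1, and was absent there in Cd3d and Dntt. Of 8 B-lineage markers only Vpreb1, a surrogate light chain gene, had such a peak, while Pax5 and Ebf1, for example, had none. None of 8 myeloid markers had one. The erythroid and megakaryocyte markers were mixed, with a start peak in 4 of 8 (Gata1, Klf1, Epor and Itga2b) and none in, among others, Hbb-b1, Gp1bb and Pf4. The 10 regulators stood below the T-lineage markers, with a peak at an own start in 2 of 10, Kit and Flt3.

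**Figure D1:**
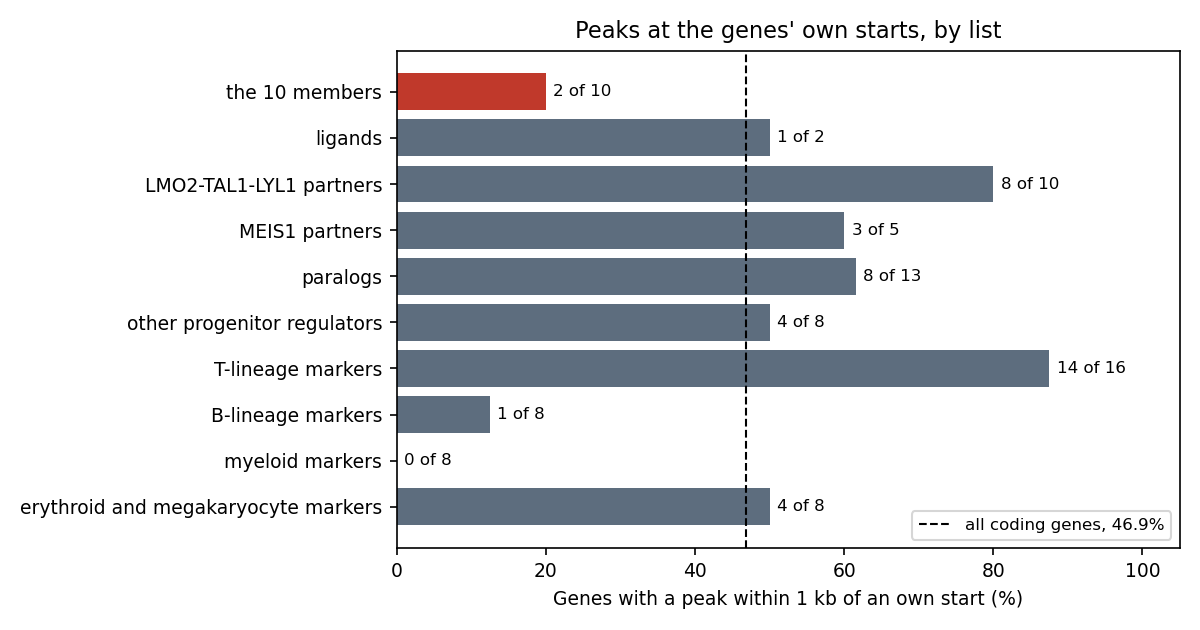
Bars give the percentage of genes with a peak within 1 kb of an own start, in each gene list (vertical axis), with the counts beside the bars and the share of all coding genes, 46.9%, as a dashed line. The 10 regulators (red) reach 2 of 10, the T-lineage markers 14 of 16 and the myeloid markers 0 of 8.

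Over the annotated coding genes, 46.9% (10506 of 22380) had a peak at an own start. Start peaks are more frequent at CpG islands, the CG-dense stretches that hold many promoters, so the 10 genes were also set against genes of their own class. The 5′ end of a gene was called CpG-rich when the 1 kb around it had an observed to expected CG ratio of 0.6 or more together with a GC content of 50% or more. Among coding genes with a CpG-rich 5′ end 76.2% had a start peak, and among those with a CpG-poor 5′ end 23.8% had one. Few of the markers above were CpG-rich, 3 of 16 T-lineage, 1 of 8 B-lineage and 1 of 8 myeloid markers. Among the erythroid and megakaryocyte markers 0 of 8 were. For most markers the share to set beside the counts is therefore 23.8% rather than 46.9%. Of the 10 regulators, 6 had a CpG-rich 5′ end, and 2 of these 6 had a start peak (Kit and Flt3) while Tal1, Meis1, Bcl11a and Mycn had none. The 4 with a CpG-poor 5′ end, Lmo2, Lyl1, Hhex and Mef2c, had none. The receptor genes were thus the members with an accessible start, and none of the other 8 genes, which all code for regulators of transcription, had a peak there.

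Part of the sequence just upstream of the 5′ end is shown for the 2 receptor genes and for 2 transcription factor genes without a start peak, because all 4 belong to the CpG-rich class. Each line gives the 200 bases before the annotated 5′ end in mm9, written 5′ to 3′ on the strand of the gene, with each CG in capitals.
Kit, chr5:75970741-75970940, plus strand: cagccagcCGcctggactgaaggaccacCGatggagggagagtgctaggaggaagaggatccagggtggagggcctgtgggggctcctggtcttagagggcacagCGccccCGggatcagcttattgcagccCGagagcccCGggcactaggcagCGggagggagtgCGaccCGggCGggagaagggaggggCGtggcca
Flt3, chr5:148212066-148212265, minus strand: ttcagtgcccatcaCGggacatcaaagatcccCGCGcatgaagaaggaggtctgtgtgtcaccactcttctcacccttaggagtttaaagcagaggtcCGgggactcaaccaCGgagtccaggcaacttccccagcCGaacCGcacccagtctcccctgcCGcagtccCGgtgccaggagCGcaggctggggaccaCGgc
Meis1, chr11:18918962-18919161, minus strand: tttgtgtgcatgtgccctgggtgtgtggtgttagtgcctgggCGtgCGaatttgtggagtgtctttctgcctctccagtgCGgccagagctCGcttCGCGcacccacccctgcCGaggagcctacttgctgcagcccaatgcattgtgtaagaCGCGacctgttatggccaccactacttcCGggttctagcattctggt
Mycn, chr12:12948721-12948920, minus strand: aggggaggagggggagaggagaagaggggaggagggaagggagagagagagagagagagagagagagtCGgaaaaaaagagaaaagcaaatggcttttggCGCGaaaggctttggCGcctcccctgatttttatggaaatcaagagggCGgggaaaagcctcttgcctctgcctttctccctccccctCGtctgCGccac
The Kit and Flt3 stretches held 11 CG each, the Meis1 stretch 10 and the Mycn stretch 7. In Tal1 and Bcl11a the same stretch held 6 and 9. The median was 7 over all coding genes and 16 over CpG-rich genes, both with and without a start peak, so all 6 stretches held fewer CG than the median of their class. All 200 bases shown for Kit lay in its start peak, as did 134 of the 200 shown for Flt3, and none of those shown for Meis1 and Mycn lay in a peak.

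The peaks were spread unevenly over the 10 windows. Lyl1 had 12 peaks in its window, Flt3 had 11, Kit and Tal1 had 3 each, Lmo2 had 2 and Bcl11a had 1. Hhex, Meis1, Mef2c and Mycn had none. The windows of Lyl1 and Flt3 together held 23 of the 32 peaks (71.9%). The median was 1.5 peaks per window, compared with 3 over all coding genes. Per 100 kb of window, the median was 1.06 over the 10 genes and 2.38 over all coding genes, whose quartiles were 0.570 and 4.71.

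By this density, Lyl1 (11.6 peaks per 100 kb) stood at the 99.3rd percentile of coding genes and Flt3 (6.48) at the 87.3rd. Tal1 (2.60) was near the middle, at the 52.4th percentile. Kit (1.65) and Lmo2 (1.61) followed at the 40.2nd and 39.7th, and Bcl11a (0.51) at the 24.5th. A window without a peak was found in 4 of the 10 genes and in 22.8% of coding genes. These 4 windows cover 0.716 Mb. Of all peaks 33.0% lay within 1 kb of a coding start, so windows were also compared by how many other genes start in them. Among coding genes with at most 1 other coding gene starting in the window, 36.3% had no peak, and 4 of the 6 members of that kind had none.

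**Figure D2:**
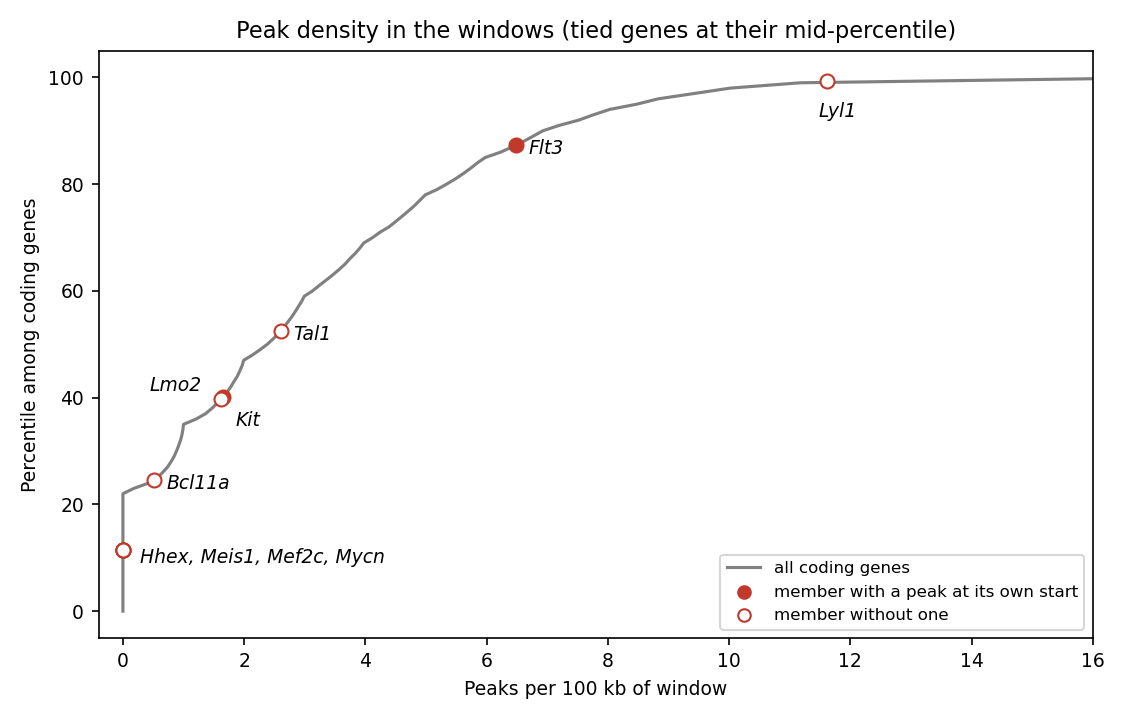
Peaks per 100 kb of window (horizontal axis, cut at 16) against the percentile of that density among coding genes (vertical axis). The grey line is the distribution over all coding genes, and circles are the 10 genes, filled where an own start has a peak. Lyl1 and Flt3 lie at the upper end, and Hhex, Meis1, Mef2c and Mycn share a density of 0.

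Most of the 32 peaks lay at or near other genes. By place, 2 were at an own start, 3 overlapped an own exon away from the starts, 4 lay in an own intron, 11 lay at the start of another gene, 4 in the body of another gene and 8 between genes. Only 8 peaks (25%) had the start of 1 of the 10 genes as their nearest coding start, 3 for Kit, 2 for Flt3 and 1 each for Lmo2, Lyl1 and Tal1. At least 1 such peak was found for 5 of the 10 genes, compared with 61.7% of coding genes. The widths of the 32 peaks ranged from 309 to 1745 bp, with a median of 555 bp against 551 bp over all peaks. A CpG-rich sequence was found in 9 of the 32 (28.1%) and in 26.1% of all peaks.

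**Figure D3:**
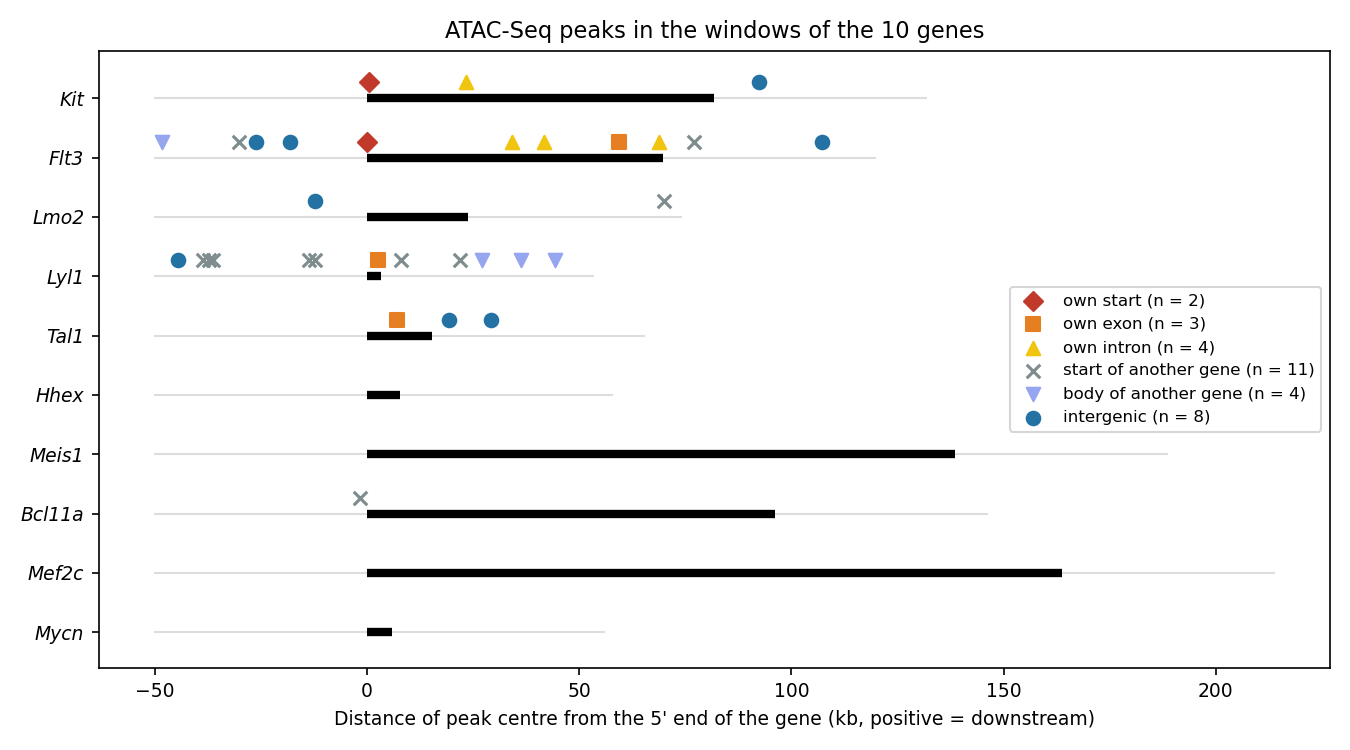
Position of each of the 32 peaks along the windows of the 10 genes, as the distance of the peak centre from the 5′ end of the gene in kb (horizontal axis, positive values downstream). Black bars are gene bodies, grey lines the 50 kb flanks, and symbols give the place of each peak. Start peaks occur in Kit and Flt3, and the crosses of the Lyl1 row are starts of neighbouring genes.

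Kit (ENSMUSG00000005672.6, chr5:75970941-76052747, plus strand) had 3 peaks, and all had a Kit start as the nearest coding start. No other coding gene starts in its window. The start peak (chr5:75970712-75972054) was 1343 bp wide and reached 229 bp upstream and 1114 bp downstream of the 5′ end, over the first exon and into the first intron. It was wide for its kind, at the 90.4th percentile among the 10738 peaks at coding starts, whose median width was 870 bp. It held 4 copies of TGGGAA, the core of the RBPJ motif, counted on both strands. A second peak of 797 bp lay in an intron, centred 23.2 kb downstream of the 5′ end (chr5:75993781-75994577). The last peak, of 509 bp, lay beyond the 3′ end of the gene, 92.4 kb from the 5′ end (chr5:76063080-76063588).

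Flt3 (ENSMUSG00000042817.9, chr5:148142317-148212065, minus strand) had 11 peaks, 5 of them in its body. Its start peak (chr5:148211694-148212199) was narrow, 506 bp wide and at the 13.4th percentile of peaks at coding starts. It reached 134 bp upstream and 372 bp downstream of the 5′ end. The annotated gene Gm17398 also starts within 1 kb of this peak, so the peak cannot be assigned to Flt3 alone. In the gene body a peak of 731 bp lay in an intron, 34.1 kb downstream of the 5′ end (chr5:148177634-148178364), and a peak of 1029 bp at 59.3 kb covered 123 coding bases (chr5:148152282-148153310). The other 2 intron peaks, at 41.8 and 68.7 kb, were 391 and 352 bp wide. The exon peak and these 2 lay closer to the start of the neighbour Prhoxnb than to a Flt3 start.

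The remaining 6 peaks of the Flt3 window belonged by position to its neighbours. The peak at the start of Pan3, a subunit of a poly(A) nuclease, was 1745 bp wide, the widest of the 32. A further 3 peaks had the Pan3 start as the nearest coding start, 1 lay at the start of Prhoxnb, and 1 was nearest to Cdx2, a homeobox gene of the intestine.

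Lmo2 (ENSMUSG00000032698.8, chr2:103798143-103822035, plus strand) had no peak in its body, although 10 different starts are annotated for it. The nearest peak was 541 bp wide and lay between genes, with its near edge 11.9 kb upstream of the nearest start (chr2:103785688-103786228). The other peak of the window lay at the shared start of Fbxo3 and 4931422A03Rik, 70.0 kb downstream. The adaptor gene thus had 1 peak of its own by distance, and that peak was outside the gene.

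Lyl1 (ENSMUSG00000034041.4, chr8:87225356-87228614, plus strand) is a short gene of 3259 bp in a gene-dense region, and 5 other coding genes start in its window. Of its 12 peaks 1 lay in the gene. This peak was 1253 bp wide (chr8:87227299-87228551) and covered the 3′ part of the gene, with 410 coding, 348 untranslated and 495 intron bases. It began 1943 bp downstream of the only annotated Lyl1 start, and it also lies in the annotated body of Nfix. The other 11 peaks lay nearest to Ier2, Nacc1, Trmt1, Nfix and G430095P16Rik, so the high density of the Lyl1 window is that of its neighbours.

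Tal1 (ENSMUSG00000028717.6, chr4:114729031-114744360, plus strand) had 3 peaks and none at its 4 annotated starts. A peak of 510 bp with a CpG-rich sequence lay over an exon, 7.05 kb downstream of the 5′ end, and 359 of its bases were coding (chr4:114735823-114736332). Peaks of 370 bp (chr4:114748169-114748538) and 480 bp (chr4:114758118-114758597) lay beyond the 3′ end, at 19.3 and 29.3 kb. For these last peaks the nearest coding start was that of Pdzk1ip1, the neighbouring gene downstream of Tal1.

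Bcl11a (ENSMUSG00000000861.9, chr11:23978056-24074123, plus strand) had 1 peak in its window, of 348 bp, 1458 bp upstream of its nearest start (chr11:23976251-23976598). The peak lay within 1 kb of the start of Gm12063, and the nearest coding start was that of A830031A19Rik. No peak fell in the 96068 bp of the Bcl11a body.

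The start distance of 1 kb separates Kit and Flt3, whose starts lay inside a peak, from Bcl11a (1458 bp), Lyl1 (1943 bp) and Tal1 (3710 bp) just beyond it. Likewise, the window of 50 kb left out peaks that lay a little further from the starts of Mycn (53.4 kb) and Hhex (56.2 kb). Within 5 kb of a start, 5 of the 10 genes had a peak, compared with 53.8% of coding genes.

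The sequences of the peaks that were nearest to the members but lay away from the starts are shown, because they are the accessible sites that position ties most closely to these genes. One is given per gene, the widest such peak of each of the 5 genes that had one. Each line gives the 300 bases around the peak centre in mm9, 5′ to 3′ on the strand of the gene, which is the minus strand for Flt3. Capitals mark, on either strand, the RBPJ core TGGGAA or its common variant TGAGAA. They also mark the E-box words CAGCTG or, with another centre, CAGATG. The word searched for GATA factors was AGATAA, and the one for RUNX factors was TGTGGT. The further words were AGGAAG for ETS factors, TGACAG for MEIS factors, CACGTG for MYC factors and CTTTGA for TCF factors.
Kit intron, chr5:75994029-75994328, plus strand: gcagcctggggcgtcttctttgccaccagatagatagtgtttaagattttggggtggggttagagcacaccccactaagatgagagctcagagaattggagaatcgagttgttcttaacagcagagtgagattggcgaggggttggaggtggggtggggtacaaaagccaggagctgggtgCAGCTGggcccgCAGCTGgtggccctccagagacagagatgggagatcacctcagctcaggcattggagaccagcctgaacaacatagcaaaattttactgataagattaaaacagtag
Flt3 intron, chr5:148177849-148178148, minus strand: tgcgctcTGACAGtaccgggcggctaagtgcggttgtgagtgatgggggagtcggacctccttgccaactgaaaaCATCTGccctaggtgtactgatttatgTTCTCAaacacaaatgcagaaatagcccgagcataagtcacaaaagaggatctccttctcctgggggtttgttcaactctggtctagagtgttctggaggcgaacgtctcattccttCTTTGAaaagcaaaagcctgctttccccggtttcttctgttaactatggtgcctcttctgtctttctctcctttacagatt
Lmo2 upstream, chr2:103785808-103786107, plus strand: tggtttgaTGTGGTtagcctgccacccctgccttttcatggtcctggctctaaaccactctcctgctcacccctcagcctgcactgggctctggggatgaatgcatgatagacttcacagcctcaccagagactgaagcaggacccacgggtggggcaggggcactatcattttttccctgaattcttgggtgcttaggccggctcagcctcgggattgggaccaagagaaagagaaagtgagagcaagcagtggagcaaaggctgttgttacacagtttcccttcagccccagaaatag
Lyl1 exon, chr8:87227775-87228074, plus strand: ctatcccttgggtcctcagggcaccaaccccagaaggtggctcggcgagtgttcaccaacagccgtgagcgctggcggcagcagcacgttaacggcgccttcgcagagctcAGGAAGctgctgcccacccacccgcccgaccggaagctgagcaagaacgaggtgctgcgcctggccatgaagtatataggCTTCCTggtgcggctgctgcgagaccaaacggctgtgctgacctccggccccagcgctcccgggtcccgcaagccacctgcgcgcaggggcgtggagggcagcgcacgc
Tal1 exon, chr4:114735928-114736227, plus strand: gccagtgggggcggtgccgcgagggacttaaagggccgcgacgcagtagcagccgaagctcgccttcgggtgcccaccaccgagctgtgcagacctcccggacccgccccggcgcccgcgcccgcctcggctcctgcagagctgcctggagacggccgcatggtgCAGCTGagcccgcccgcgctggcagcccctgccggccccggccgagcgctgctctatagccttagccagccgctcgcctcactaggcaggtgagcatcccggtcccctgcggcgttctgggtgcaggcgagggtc
The centre of the Kit intron peak held 2 copies of the palindromic E-box CAGCTG. The Flt3 intron centre held a MEIS word, an E-box, an RBPJ word of the TGAGAA type and a TCF word. The Lmo2 upstream centre held a single RUNX word, the Lyl1 centre 2 ETS words and the Tal1 exon centre 1 E-box. None of these 5 centres held AGATAA, the only GATA word searched. Other GATA sequences, such as AGATAG and TGATAA, both present in the Kit centre, were not counted.

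Over the whole width of the 32 peaks, these short words occurred about as often as in all peaks. Intervals here are 95% Wilson intervals, which cover counting error only, and the counts were not adjusted for peak width. TGGGAA was present in 17 of 32 peaks (53.1%, 36.5 to 69.1%) and in 42.5% of all peaks. Counting TGAGAA as well raised this to 23 of 32 (71.9%), compared with 62.5%. In the central 200 bp of the peaks TGGGAA was found in 9 of 32 (28.1%, 15.6 to 45.4%), compared with 15.3% of all peaks. Among the 8 peaks nearest to a member it was found there in 1 (12.5%, 2.24 to 47.1%), so 8 of the 9 peaks were nearest to other genes. Some other words were less frequent in the centres than over all peaks, among them TGACAG in 3.12% against 15.7%, CAGATG in 6.25% against 16.9% and TGTGGT in 9.38% against 19.9%. The GATA word AGATAA was found in 0 of 32 centres against 6.87%, and AGGAAG in 21.9% against 32.6%. The interval of each of these less frequent words reached the share over all peaks. That of TGGGAA in the centres did not, since it began at 15.6%, just above 15.3%. Not less frequent there were GGGCGG (31.25% against 23.4%), CACGTG (6.25% against 4.82%) and CAGCTG (21.9% against 21.3%). The intervals treat the peaks as independent, although peaks of a window are neighbours. A head-to-head pair of these words 15 to 17 bases apart, the arrangement on which paired RBPJ complexes assemble, was found in 0 of 32 peaks and in 0.178% of all peaks.

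The words of the LMO2 complex were not more frequent in the windows of its own genes and their fellow members. CAGCTG was present in 12 of 32 peaks (37.5%, 22.9 to 54.8%) against 42.7% of all peaks, and CAGATG in 11 (34.4%) against 39.1%. The GATA word AGATAA was present in 3 peaks (9.38%, 3.24 to 24.2%) against 20.2%. The RUNX word TGTGGT was found in 14 peaks (43.8% against 41.4%), with 4 copies in the Lyl1 exon peak. AGGAAG occurred in 62.5% against 63.9%, TGACAG in 31.2% against 39.3%, CACGTG in 18.8% against 13.8%, GGGCGG, the SP word, in 43.8% against 38.7% and CTTTGA in 34.4% against 33.2%. TAAAAATA, a MEF2 word, was present in 1 peak (3.12%) against 3.80%. For each of these words the interval over the full width of the 32 peaks contained the share over all peaks.

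Genes without a start peak differed in how far the peak-free sequence around them reached. The 5′ ends of Mef2c, Bcl11a and Meis1 lay in stretches of more than 1 Mb without a peak, a length to which attention was drawn after the values were seen. The Mef2c stretch was 2.44 Mb long and the 140th longest of 32505 gaps between neighbouring peaks, the Bcl11a stretch 2.31 Mb (157th) and the Meis1 stretch 1.87 Mb (216th). The median gap was 18.9 kb. In all, 3 of the 10 genes and 13.6% of coding genes had their 5′ end in 1 of the 452 stretches of this kind.

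Mef2c (ENSMUSG00000005583.8, chr13:83643033-83806684, plus strand) was the only coding gene to start in its stretch, whose flanking peaks lay at the starts of Cetn3 and Tmem161b. Its nearest peak was 698 kb from a start, at the 96.1st percentile of coding genes. Meis1 (ENSMUSG00000020160.10, chr11:18780433-18918961, minus strand) had its nearest peak 804 kb from a start, at the 96.7th percentile. Over 500 kb to the nearest peak was found in 5.92% of coding genes, and the median distance was 2.63 kb. For Bcl11a the peak-free stretch began at the peak 1458 bp from its start and ran downstream through the whole gene to a peak at the start of Fancl. Unknown bases of the assembly made up 0.0205% of the Mef2c stretch and none of the Bcl11a and Meis1 stretches.

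The absence of peaks was far shorter at Hhex (ENSMUSG00000024986.5, chr19:37507377-37515218, plus strand) and Mycn (ENSMUSG00000037169.8, chr12:12942902-12948720, minus strand), whose stretches were 117 and 173 kb long. The Hhex stretch ended upstream at the start peak of Kif11, a mitotic kinesin. The corresponding stretch was 81.4 kb at Lmo2, 62.6 kb at Tal1, where it began at the start peak of Stil, and 14.0 kb at Lyl1. The 8 genes without a start peak thus ranged from a peak-free stretch shorter than the median gap, at Lyl1, to stretches among the longest of the genome.

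**Figure D4:**
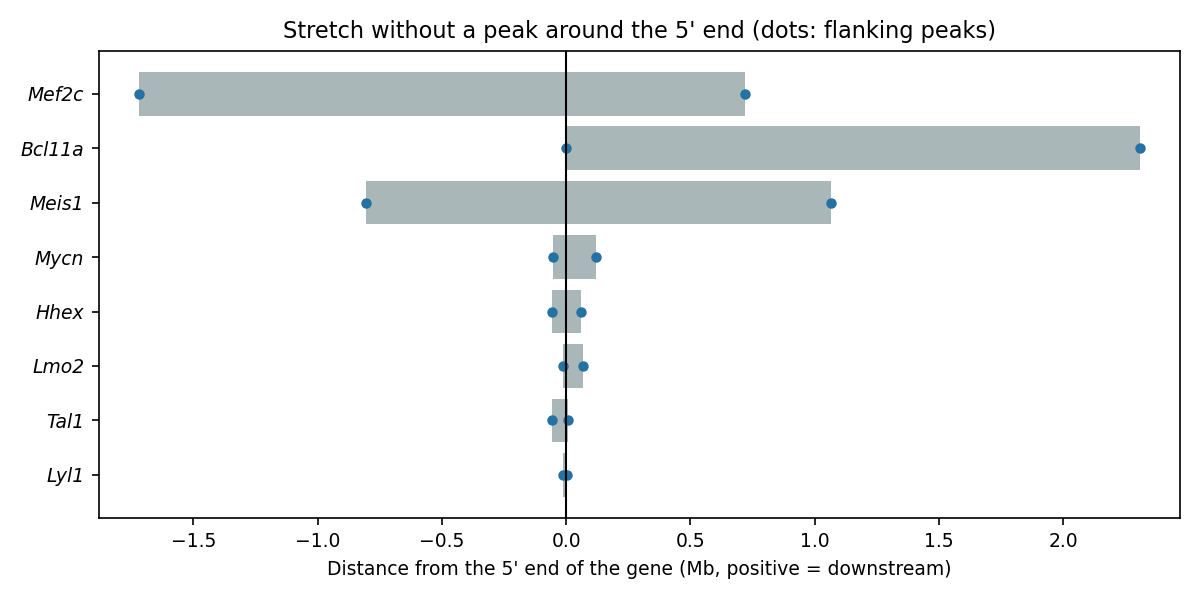
Stretch without a peak around the 5′ end of the 8 genes that lack a start peak, in Mb from the 5′ end (horizontal axis, positive values downstream), with dots at the flanking peaks. Mef2c (2.44 Mb), Bcl11a (2.31 Mb) and Meis1 (1.87 Mb) stand apart from the other 5, which have at most 173 kb.

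The relatives of the 10 genes differed by family. Of 13 paralogs 8 had a start peak, and 8 of the 13 had a CpG-rich 5′ end. The share over coding genes was 46.9%, with 76.2% in the CpG-rich and 23.8% in the CpG-poor class, so the paralogs' count was near what their class showed. Their median density was 4.29 peaks per 100 kb. In the Bcl11, Mef2, Myc, Lmo and Meis families the relatives listed had more peaks than the member. Bcl11b, the T-lineage relative of Bcl11a that is required for commitment, had 9 peaks in its window, all nearest to its own start, where Bcl11a had 1 peak and none nearest to it. Myc had 6 peaks in its window, 3 of them at its own starts, whereas Mycn had none. Mef2a, Mef2b and Mef2d had 4, 12 and 6 peaks and a start peak each, whereas Mef2c had none in its window. Nearest to the own start were 2 of the Mef2a, 3 of the Mef2b and 5 of the Mef2d peaks, the others being nearest to neighbouring genes. Lmo4 had 5 peaks, 2 of them at own starts, and Lmo1 had 3 with none there.

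In the families of Tal1 and Lyl1 and of the receptors the relatives had fewer peaks than the members. Tal2, a further gene of the Tal1 and Lyl1 family, had no peak in its window, and neither had Pdgfra, a receptor of the Kit and Flt3 family. Csf1r, the myeloid receptor of that family, had 2 peaks, neither nearest to its start. Meis2 had 1 peak and no start peak, while Meis3 had 5 peaks including 1 at its start. Mycl had 7 peaks, 1 of them at its start. Only 2 of the Meis3 peaks and 2 of the Mycl peaks were nearest to the gene's own start.

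**Figure D5:**
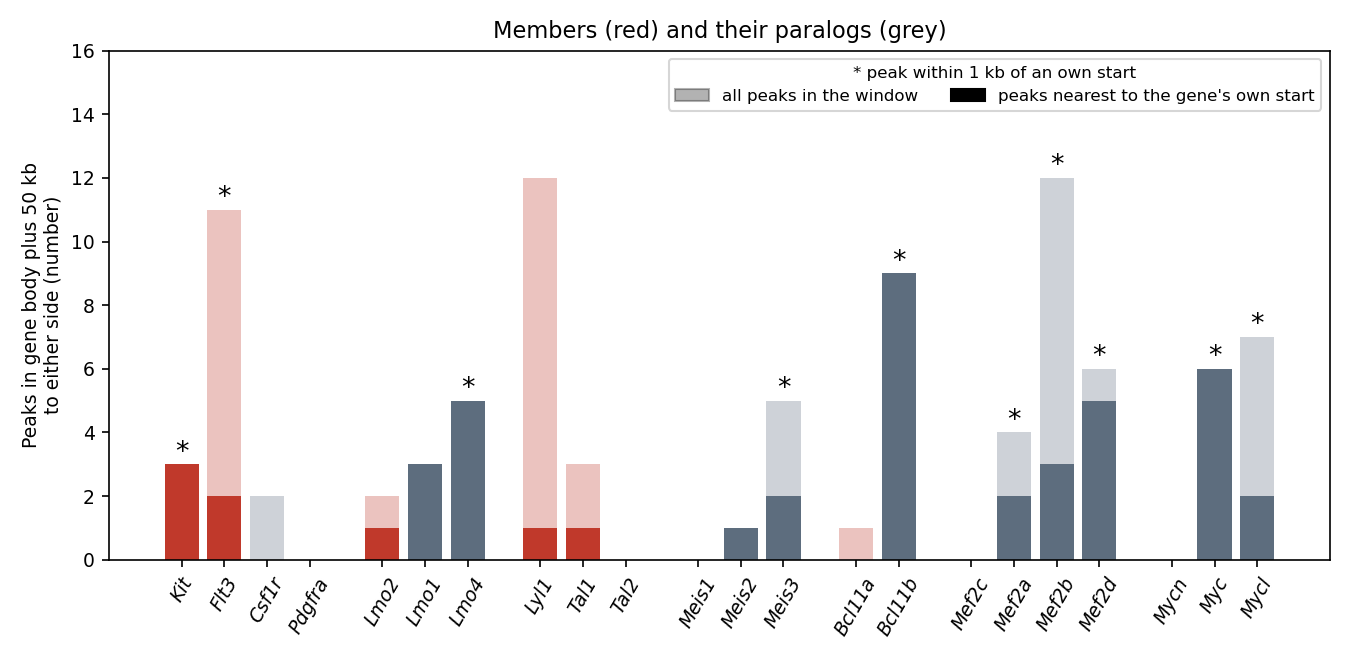
Number of peaks in the window (vertical axis) of the members, in red, and their paralogs, in grey, grouped by family. Pale bars count all peaks, full bars those nearest to the gene's own start, and asterisks mark a peak within 1 kb of an own start. Bcl11b reaches 9 and Myc 6, next to 1 for Bcl11a and 0 for Mycn.

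Among genes whose products work with LMO2, TAL1 and LYL1, 6 of 10 had a CpG-rich 5′ end. A start peak was found in 8 of these 10 partners, beside 46.9% of coding genes and 76.2 and 23.8% of the CpG-rich and CpG-poor classes, and the difference from Lmo2, Tal1 and Lyl1 was not tested. They were Ldb1, the adaptor that bridges LMO2 complexes, the E proteins Tcf3, Tcf12 and Tcf4, Gata1, Gata3, Runx1 and Fli1. Gata2, the GATA factor of stem cells, and Erg, an ETS factor of stem cells, had none. Runx1 had 14 peaks in its window and Gata3 had 6, of which 4 lay at own starts. Of the partners of MEIS1, Pbx2 and Pbx3 had a start peak, and Hoxa9 and Hoxa10 had none.

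The ligands of the receptors differed, since Flt3l had 2 peaks at own starts and Kitl had none in its window. Among 8 other progenitor regulators, Gfi1b, Gfi1, Spi1 and Myb had a start peak and Cebpa, Mecom, Hlf and Nkx2-3 had none. A CpG-rich 5′ end was found in 4 of these 8. Their count was thus near the share over coding genes, 46.9%, with 76.2% in the CpG-rich and 23.8% in the CpG-poor class. A peak lay in the window of 6 of these 8 genes, and the windows of Mecom and Hlf held none. Over coding genes 22.8% had no peak in the window, so this list was near that share. The median density was 4.14 peaks per 100 kb in this list, 3.42 in the LMO2-TAL1-LYL1 partners, 1.82 in the MEIS1 partners and 8.17 in the T-lineage markers, compared with 1.06 in the 10 regulators and 2.38 over all coding genes. It was 4.86 in the B-lineage, 4.04 in the myeloid and 2.24 in the erythroid and megakaryocyte markers, so a list with few start peaks could still have a density above that of all coding genes. The lists are small and differ in how gene-dense their surroundings are, and the difference between them was not tested.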

How the data were processed

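Accessibility was measured with an ATAC-Seq kit in 6 libraries of Beko cells, 3 from the GSI and 3 from the DMSO group. As described in the study's methods and, for HISAT2 2.2.1, Picard and MACS2, in the submitters' processing notes, the authors trimmed reads, aligned them to mm9 keeping 1 alignment per read, removed duplicates, called peaks per library without an input and merged them across replicates with MSPC. Intervals present in 3 of 6 libraries and outside blacklisted regions were kept. The deposited values are interval positions in bp, in 1 list for both treatments. Every score is 0 and no peak is named, so the list holds no read counts, and depth per library is not given by it. Keeping 1 alignment per read makes repeated sequence uncertain. A transposase offset shift is not given in the sources used here.

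Printed coordinates start at 1. The reference was NCBIM37, the same build as mm9, with GENCODE vM1. All 10 genes matched by symbol, and the background was the 22380 coding genes on chromosomes with peaks. Spi1 and Mycl are annotated as Sfpi1 and Mycl1. Gfi1 and Ptcra are not classed as coding there and are therefore not in the background. Widths, places, distances, CG content and words on both strands were computed with Python 3.11.15, numpy 2.4.6, scipy 1.17.1 and matplotlib 3.10.9. The counting of overlaps was tested on simulated data.

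The 10 genes and the companion lists were chosen with earlier results of these data known. All members and companions are named, except a few companions not reported here, with every start peak and, for each member, the widest other peak nearest to it. The 1 Mb limit for peak-free stretches, and the class with at most 1 other coding gene in the window, were chosen after values were seen. Alternatives were peaks of at least 500 bp, joining within 1 kb, flanks of 10 or 100 kb, nearest peaks only, other start definitions and other motif settings. The planned comparison of GSI with DMSO could not be made from 1 merged list.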

Additional observations from a re-analysis of the deposited data

How the results depend on the processing

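No paired analysis was possible because libraries were merged before the intervals were listed, so neither the replicate numbers nor a left-out library could be used. The count of 32 peaks became 21 with peaks of at least 500 bp, 13 with flanks of 10 kb and 8 with peaks nearest to a member only. The median of 1.06 peaks per 100 kb became 0.434, 0.431 and 0.404 under the same 3 settings and 1.67 with flanks of 100 kb. These settings remove or add peaks by construction. The count of 2 genes with a start peak was 5 when a start within 5 kb of a peak was accepted, and stayed 2 with the start inside the peak, coding transcripts only, peaks of at least 500 bp or joined peaks. Over all coding genes the start-peak share ranged from 43.8 to 53.8% under these settings. The TGGGAA share of 53.1% became 71.9% with TGAGAA added and 28.1% in the central 200 bp. Mef2c and Meis1 had no peak under any window, whereas with flanks of 100 kb Hhex had 4 peaks and Mycn 1. With flanks of 100 kb 2 of the 10 genes had no peak, compared with 17.4% of coding genes, and with flanks of 10 kb 5, compared with 34.9%. The absence of a peak says that no interval passed the calling in 3 libraries, not that the site was closed, and without read depth no limit can be set on what was missed.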
